A study of Mus musculus with 6 samples.

Results

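An alternative 3' splice site event is a choice between a pair of acceptors, the intron ends at which an exon can begin. Use of the upstream acceptor gives the longer exon, and use of the downstream acceptor leaves out the segment between them. All 2976 rows for this event type in the authors' deposited splicing tables were taken, of 39201 rows over 5 event types. They were grouped by the length of the segment, into 644 tandem acceptors 3 bases apart, 842 pairs 4 to 30 bases apart, 1476 pairs more than 30 bases apart and a remainder of 14 pairs 1 or 2 bases apart. The 2976 rows hold 2824 different acceptor pairs in 2178 genes, since a pair can be listed again with another upstream exon.

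The samples were heart ventricles of 1-day-old C57BL6 mice, 3 with a knockout of Rbpms (Rbpms KO) and 3 wild type (WT), measured by stranded sequencing of polyadenylated RNA. The labels give neither the number of animals behind a library nor the design of the knockout, and p-values here concern these libraries only. Those of the read-weighted fit described below also depend on read counts. The splicing tables give 3 libraries in each of 2 sets and name neither genotype nor library. The sets are therefore called by their reads at Rbpms exons, which is how they were oriented and is no result. Summed over 15 rows for skipped exons of Rbpms, in which a read can count more than once, the Rbpms-depleted set held 40, 22 and 14 reads and the Rbpms-expressing set held 3420, 3838 and 3985 reads. Rbpms itself measured 0.594, 0.276 and 0.240 RPKM (reads per kilobase of gene and per unit of library depth) in the Rbpms KO libraries and 33.1, 35.7 and 38.1 RPKM in the WT libraries. Replicate numbers in the splicing tables are only positions in the deposited lists.

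An intron ends in most cases with the letters AG, preceded by a stretch rich in pyrimidines and a branch point. The spliceosome chooses among nearby AG pairs, and proteins bound in the intron or exon can shift that choice. Where acceptors lie 3 bases apart, the choice inserts or removes a single triplet, and such tandem acceptors are widespread in mammalian genes. Rbpms is an RNA-binding protein of muscle that binds RNA containing CAC and is known as a splicing regulator in smooth muscle and heart.

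The segments of 3 events, and of the tandem acceptors with the most reads, show what each choice adds to the RNA. Nptn, Cacna2d1 and Pdlim5 are shown because a read-weighted fit described below called them, and were chosen for printing after their values were seen. The segment of Tpm2, also called, is too long to print. Rbm3, Gnas, Pcbp2, Mff and Cnbp are the 5 tandem events with the most reads among those used at 20 to 80%. Each line runs 5' to 3' along the spliced RNA as DNA letters, with up to 20 bases of the exon before, the segment in capitals and up to 20 bases of the exon after. The letters were read from GENCODE mouse release 21 transcripts on GRCm38.
Nptn: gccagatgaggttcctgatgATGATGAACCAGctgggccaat
Cacna2d1: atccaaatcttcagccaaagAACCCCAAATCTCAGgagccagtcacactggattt
Rbm3: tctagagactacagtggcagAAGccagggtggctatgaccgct
Gnas: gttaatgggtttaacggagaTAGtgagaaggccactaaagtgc
Pcbp2: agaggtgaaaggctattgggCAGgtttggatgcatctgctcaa
Mff: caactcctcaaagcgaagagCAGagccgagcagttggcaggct
Cnbp: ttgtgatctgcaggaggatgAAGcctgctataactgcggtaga
For the 327 bases of Pdlim5, the first line below gives the junction into the longer exon and the second the step into the shorter one, with 20 bases on each side.
Pdlim5 upstream acceptor: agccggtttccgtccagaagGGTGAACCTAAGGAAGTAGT
Pdlim5 downstream acceptor: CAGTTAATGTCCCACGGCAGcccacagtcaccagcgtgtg

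All 8 of these segments overlap annotated coding sequence, and a segment is called coding here where any base of it does. On GRCm38 they are, in Nptn, chr9:58650497-58650508 on the plus strand; in Cacna2d1, chr5:16326312-16326326 on the plus strand; and in Pdlim5, chr3:142312215-142312541 on the minus strand. The tandem segments are chrX:8143330-8143332 on the minus strand in Rbm3, chr2:174341650-174341652 on the plus strand in Gnas and chr15:102489752-102489754 on the plus strand in Pcbp2. They are chr1:82735416-82735418 on the plus strand in Mff and chr6:87845321-87845323 on the minus strand in Cnbp. Each segment ends in the letters that stand in front of the downstream acceptor, which are AG in all 8.

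The inclusion level is the share of length-corrected junction reads that used the upstream acceptor, in percent. A row was tested where each of the 6 libraries had at least 10 junction reads and the mean level lay between 5 and 95%. These limits kept 714 rows, namely 241 tandem pairs, 158 pairs 4 to 30 bases apart, 314 pairs over 30 bases apart and 1 pair 2 bases apart. Of the 2262 other rows, 1410 had under 10 reads in some library, 555 had a mean level above 95% and 297 one below 5%. Junction reads over all 2976 rows numbered 155066 to 160239 per library in the Rbpms-depleted set and 177700 to 184212 in the Rbpms-expressing set. The median tested row held 33 to 34 reads per library in the Rbpms-depleted set and 37 to 40 in the Rbpms-expressing set, so that shares at the median row carry a wide counting error.

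Set means of the level differed by a median of 3.57 points in absolute value over the 714 rows, and by more than 10 points in 12.5% of them. With limma on the levels, 0 of the 714 rows passed an adjusted p below 0.05, a background of 0%. At an unadjusted p below 0.05 there were 48 rows, 6.72% of those tested, of which 21 were higher and 27 lower in the Rbpms-depleted set. In 88 rows, 12.3%, the sets did not overlap, with 39 higher and 49 lower in the Rbpms-depleted set. This count of 0 says little about stability, since on simulated data the same fit recovered 0% of changes of 10 percentage points and 2.83% of changes of 20 points. It gives a level from few reads the same weight as a level from many. Of the 7 alternatives that kept all libraries, 3 gave calls, which were 2 with at least 20 reads per library (Nptn and Pdlim5, both higher), 3 with no limit on the mean level and 1 without the mean-variance trend (Nptn). The 3 calls with no limit on the mean level were Pdlim5, higher, and a pair of rows of Dmtf1, lower.

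After that count of 0 was seen, 1 further fit was added, in which limma weighted each level by the reads behind it. It called 4 of 714 rows, 0.56%, all 4 higher in the Rbpms-depleted set, in Nptn, Cacna2d1, Pdlim5 and Tpm2. On simulated data it recovered 10% of changes of 10 points, 36.7% of changes of 20 points and 96.2% of 20-point changes at rows with a mean of at least 100 reads, and 7.28% of its simulated calls were false. These shares come from 20 simulations with 60 of 714 rows moved in each, and were not worked out for the 4 called rows. Because the read-weighted fit was chosen with the first result in view, its 4 calls are given beside the 0 and do not replace it. In the authors' deposited table, 28 of 2976 rows, 0.941%, had a false discovery rate below 0.05, and the 4 rows were among them.

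**Figure D1:**
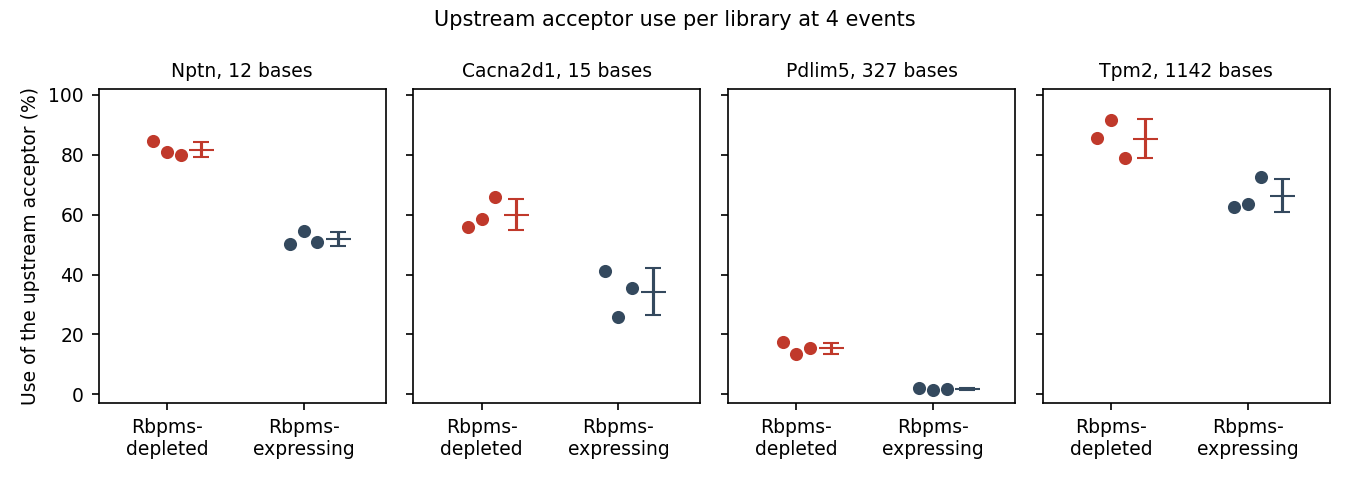
Use of the upstream acceptor in percent at the 4 events called by the read-weighted fit, with a point for each library and the mean and SD of 3 libraries beside them. In each panel all 3 Rbpms-depleted libraries, on the left, lie above all 3 Rbpms-expressing libraries, and the step is largest in Nptn.

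Nptn, neuroplastin, is a cell adhesion protein of the immunoglobulin superfamily and a partner of plasma membrane calcium pumps. The 12-base segment shown above was included at 84.5, 80.8 and 79.8% in the Rbpms-depleted set, against 50.2, 54.7 and 50.7% in the Rbpms-expressing set. Every depleted library lay above every expressing library, with 189 to 262 junction reads behind each value. The means were 81.7 ± 2.48% and 51.9 ± 2.47% (SD, n = 3 each), and the difference was 29.8 points, with an adjusted p of 0.0947 in the unweighted limma fit. The read-weighted limma fit gave 29.5 points (95% interval 24.0 to 35.0, adjusted p = 5.50e-10), and leaving out each library in turn kept it at 28.3 to 31.0 points with an adjusted p of at most 5.55e-05.

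A second row of Nptn has the same acceptors after an upstream exon with another donor. There the segment was included at 100, 98.5 and 98.0% in the Rbpms-depleted set and at 90.3, 92.7 and 84.8% in the Rbpms-expressing set, on 35 to 75 reads per library. The direction was the same and the sets did not overlap, but the read-weighted limma fit did not call the row (9.26 points, adjusted p = 0.206). The row was named after its values were seen, and because it shares the acceptor pair it is no independent observation. Total Nptn RNA measured 29.4, 29.9 and 28.8 RPKM in the Rbpms KO libraries and 28.5, 27.1 and 28.6 RPKM in the WT libraries, and the gene was not called (log2 change 0.07, SE 0.07, limma adjusted p = 0.587).

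Pdlim5 encodes a PDZ and LIM domain protein of the Z-disc, the plate that anchors the thin filaments. Its 327-base coding segment was included at 17.3, 13.5 and 15.3% in the Rbpms-depleted set, against 2.0, 1.4 and 1.7% in the Rbpms-expressing set. The expressing libraries were all near the floor of use and the depleted libraries stood well clear of them, on 469 to 699 reads each. The means were 15.4 ± 1.90% and 1.70 ± 0.30% (SD, n = 3 each), a difference of 13.7 points with an adjusted p of 0.112 in the unweighted limma fit. With weights for reads the difference was 13.5 points (95% interval 11.3 to 15.7, limma adjusted p = 3.18e-11), and 12.7 to 14.4 points without any 1 library. The length of 327 bases is a multiple of 3. Pdlim5 RNA measured 101, 121 and 118 RPKM in the Rbpms KO libraries and 83.1, 81.8 and 99.5 RPKM in the WT libraries (log2 change 0.37, SE 0.10, limma adjusted p = 0.0810), which did not pass the threshold. Without Rbpms KO replicate 1 or WT replicate 3 it did, at log2 changes of 0.44 and 0.46.

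Tpm2 encodes a tropomyosin of slow skeletal and smooth muscle that lies along actin filaments. Its acceptors lie 1142 bases apart, with the segment at chr4:43514862-43516003 on the minus strand, covering the last coding bases and 3' UTR in the annotation. The upstream acceptor was used at 85.5, 91.8 and 78.8% in the Rbpms-depleted set, against 62.5, 63.7 and 72.7% in the Rbpms-expressing set. The sets did not overlap, but the spread within each was wider than in Nptn, at 6.50 and 5.57 points (SD, n = 3 each), on 266 to 562 reads per library. The unweighted limma fit gave 19.1 points (adjusted p = 0.465) and the read-weighted one 20.2 points (95% interval 15.0 to 25.5, adjusted p = 1.04e-06). The SE was 5.36 points in the unweighted fit and 2.58 points in the read-weighted one. The weighted interval and p lean on read counts and may be too narrow for the spread between these libraries. When reads within the segment were counted beside the junction reads, the read-weighted limma fit lost the call (adjusted p = 0.618). The unweighted difference was then 17.7 points, in place of 19.1 points.

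Tpm2 RNA varied between libraries, at 48.5, 80.8 and 48.6 RPKM in the Rbpms KO libraries and 41.6, 41.5 and 54.4 RPKM in the WT libraries, and was not called (log2 change 0.34, SE 0.20, limma adjusted p = 0.361). Without Rbpms KO replicate 2 the log2 change was 0.09. Markers of some other cell types moved with genotype in the same libraries. Atrial (Sln, Myl7 and Nppa), blood (Hbb-bt and Hba-a1) and fibroblast (Col1a1 and Dcn) markers were not called, and their summed levels overlapped between genotypes. The summed level of 3 of 3 smooth muscle markers, Myh11, Cnn1 and Acta2, was 170 to 251 RPKM in Rbpms KO and 841 to 991 RPKM in WT. That of 3 of 3 airway markers, Scgb1a1, Scgb3a2 and Sftpb, was 0.258 to 17.4 RPKM in Rbpms KO and 512 to 708 RPKM in WT. In whole tissue, fewer cells of a type and less RNA per cell cannot be told apart, and the part of other cell types in the levels at Tpm2 and the other acceptors was not tested. The endothelial markers Pecam1 and Cdh5 summed to 123 to 145 RPKM in Rbpms KO and 101 to 116 RPKM in WT, and Pecam1 rose in the limma fit. The ventricular markers Myl2, Myh7, Tnnt2, Actc1 and Myh6 were all present and summed to 9700 to 13265 RPKM in Rbpms KO and 13900 to 15056 RPKM in WT, without overlap. Of these 5, limma called Myh7 higher and Myh6 lower in Rbpms KO.

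Cacna2d1 encodes the alpha-2/delta-1 subunit of voltage-gated calcium channels, which aids the channel's delivery to the membrane. Its 15-base segment was included at 55.8, 58.4 and 65.9% in the Rbpms-depleted set, against 41.3, 25.8 and 35.5% in the Rbpms-expressing set. The sets did not overlap, on 41 to 72 reads per library. The difference was 25.8 points with an adjusted p of 0.297 in the unweighted limma fit, and 24.6 points in the read-weighted one (95% interval 12.7 to 36.6, adjusted p = 0.0340). The weighted call held without Rbpms-expressing replicate 1 and was lost without each of the other 5 libraries, with adjusted p up to 0.282. Cacna2d1 RNA rose in the limma fit, with 16.1, 19.0 and 18.4 RPKM in Rbpms KO and 14.0, 13.9 and 13.0 RPKM in WT (log2 change 0.37, SE 0.08, adjusted p = 0.0413), a call lost without each WT library and without Rbpms KO replicate 2 or 3.

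The intron in front of an upstream acceptor could be read only where another transcript runs through it, for 878 of 2976 rows. The 30 intron bases before the Nptn segment were atggattattaaaaactggacacctcatag and those before the Cacna2d1 segment were ctaattccttaactcttgtgccttgtgtag. The letters CAC, searched on the sense strand and in these windows only, occur in the Nptn window and not in the Cacna2d1 window. Outside the windows, the lines printed above hold CAC in the exon after the Cacna2d1 and Gnas segments. CAC also stands there on both sides of the Pdlim5 downstream acceptor. The letters CAC occur in 303 of the 878 readable windows, 34.5%, so the match at Nptn is a description and no evidence of binding.

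The 3 distance classes were not tested against each other and are described by their counts. In the Rbpms-depleted set 94 tandem rows were higher and 147 lower, 75 and 83 rows 4 to 30 bases apart were higher and lower, and 145 and 169 rows over 30 bases apart. The median difference was -1.37 points for tandem acceptors, -0.43 points for pairs 4 to 30 bases apart and -0.52 points for pairs over 30 bases apart, with -0.78 points over all 714 rows. The sets did not overlap in 29 of 241 tandem rows (12.0%), 20 of 158 rows 4 to 30 bases apart (12.7%) and 39 of 314 rows over 30 bases apart (12.4%), beside 12.3% of all rows. The median absolute difference was 3.43, 3.32 and 3.80 points in the same order of distance. The median SD between libraries of a set was 4.42 to 5.60 points in all 3 classes. That SD describes single libraries and the difference describes means of 3, so the sizes of these values cannot be compared directly.

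**Figure D2:**
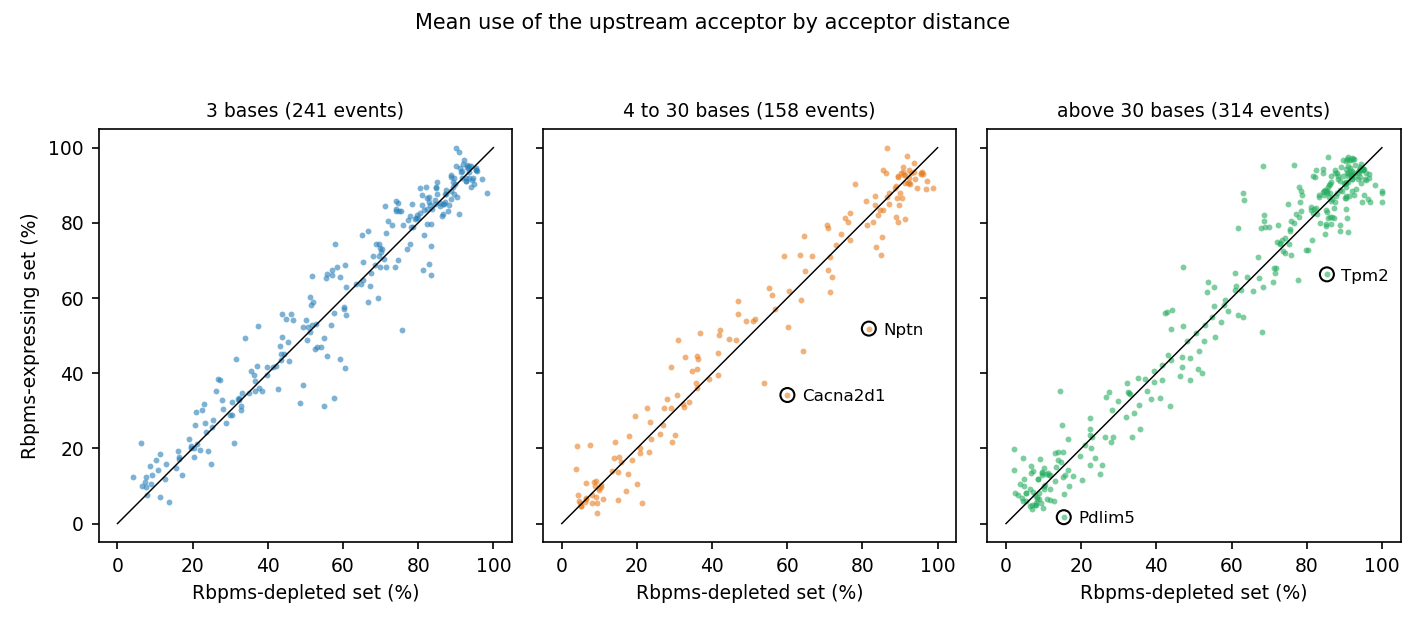
Mean use of the upstream acceptor in the Rbpms-depleted set (horizontal) against the Rbpms-expressing set (vertical), in percent, with a point for each tested event and a line of equal use. Events of each class scatter about the line. The means differed by more than 10 points in 12% of the 241 tandem events and in 12.7% of each longer class. The 4 circled events called by the read-weighted fit lie below the line, 2 in each of the longer classes.

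Differences were smaller in rows with more reads. Of the 78 tested rows with at least 100 reads in every library, 3 differed by more than 10 points, which were Nptn, Tpm2 and Pdlim5. The 24 tandem rows among them had a median absolute difference of 0.98 points and ranged from -2.23 to 4.80 points, with 0 beyond 5 points. The 19 rows 4 to 30 bases apart had a median of 2.13 points and ranged from -5.83 to 29.8 points, with 2 beyond 5 points. The 34 rows over 30 bases apart had a median of 2.55 points and ranged from -9.00 to 19.1 points, with 8 beyond 5 points. Over all 714 rows 89 differed by more than 10 points, most of them on few reads.

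**Figure D3:**
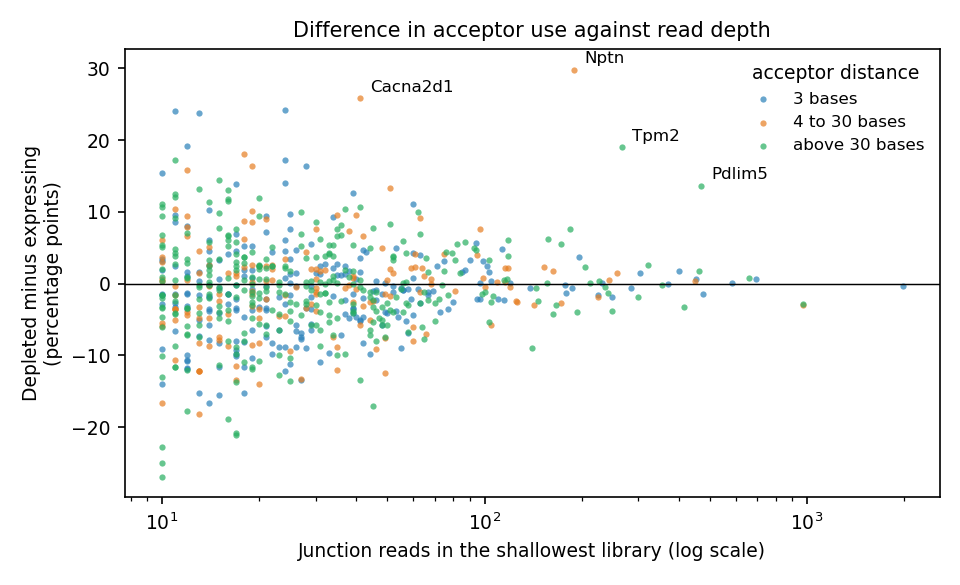
Difference of the mean upstream acceptor use, Rbpms-depleted minus Rbpms-expressing, in percentage points, against the junction reads of the shallowest library on a log scale, with a point for each tested event in the 3 distance classes. Differences beyond 10 points occur mostly below 100 reads, and Nptn, Tpm2 and Pdlim5 stand apart above 100 reads.

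Tandem acceptors with many reads showed steady partial use in both sets. Rbm3, a cold-induced RNA-binding protein, used the upstream acceptor at 37.8, 40.2 and 41.0% in the Rbpms-depleted set and at 42.4, 38.2 and 38.3% in the Rbpms-expressing set. Gnas, the stimulatory G protein alpha subunit, stood at 66.0, 64.5 and 65.4% in the Rbpms-depleted set and at 62.1, 67.9 and 64.0% in the Rbpms-expressing set. In both genes the sets overlapped and the differences were 0.03 and 0.63 points, with read-weighted 95% intervals of -3.37 to 3.33 and -3.08 to 4.56 points.

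Pcbp2, a poly(C)-binding protein, used its upstream acceptor at 69.6, 71.1 and 69.0% in the Rbpms-depleted set and at 68.4, 65.7 and 70.3% in the Rbpms-expressing set. Mff, the receptor that brings the fission dynamin to mitochondria, stood lower, at 27.2, 31.3 and 32.9% in the Rbpms-depleted set and at 30.5, 32.3 and 34.0% in the Rbpms-expressing set. Cnbp, a zinc finger protein that binds nucleic acids, stood at 42.2, 43.1 and 45.4% in the Rbpms-depleted set and at 43.4, 44.6 and 42.5% in the Rbpms-expressing set. The sets overlapped in these 3 genes as well, with differences of 1.77 points in Pcbp2 (and of -1.73 points in a second row with the same acceptors), -1.80 points in Mff and 0.07 points in Cnbp.

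Of these 5 genes only Rbm3 passed the test for total RNA, while its acceptor use differed by 0.03 points. Its RNA fell to 65.6, 68.1 and 64.1 RPKM in Rbpms KO, against 84.7, 85.0 and 83.8 RPKM in WT (log2 change -0.36, SE 0.06, limma adjusted p = 0.0179). Gnas measured only 1.87 to 2.41 RPKM although its event held 3078 junction reads. Pcbp2 measured 32.4 to 35.5 RPKM with 2718 junction reads. The RPKM of Gnas may therefore miss much of its RNA, which was not tested.

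**Figure D4:**
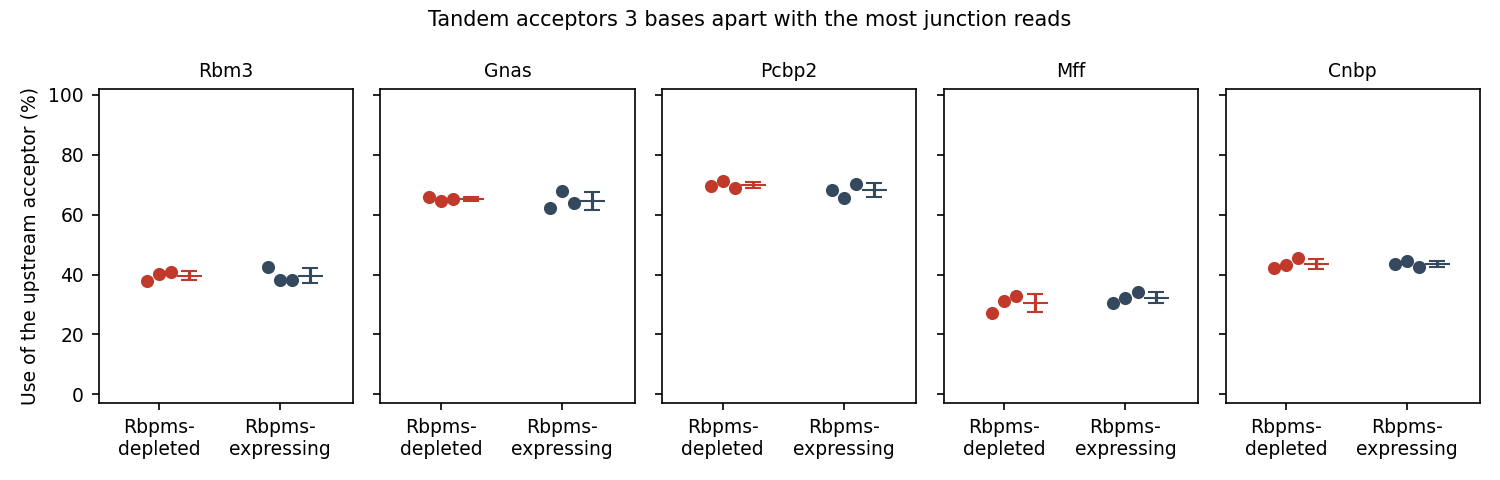
Use of the upstream acceptor in percent at the 5 tandem events with the most junction reads among those used at 20 to 80%, with a point for each library and the mean and SD of 3 libraries. Rbpms-depleted libraries on the left and Rbpms-expressing libraries on the right stand at nearly the same height within each gene, while the genes range from 27.2% in Mff to 71.1% in Pcbp2.

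The tandem acceptors with the smallest unadjusted p rested on few reads. Tox3, an HMG-box transcription factor, stood at 53.2, 49.3 and 62.5% in the Rbpms-depleted set and at 24.5, 30.7 and 38.5% in the Rbpms-expressing set, on 13 to 23 reads per library. Atrx, a chromatin remodeller, had a row that stood at 64.4, 81.7 and 80.8% in the Rbpms-depleted set and at 44.8, 57.2 and 52.7% in the Rbpms-expressing set, on 11 to 28 reads. A second row of Atrx, with the same acceptors after another upstream exon, differed the other way on 21 to 41 reads, at 85.4, 84.0 and 76.8% in the Rbpms-depleted set and at 92.5, 76.0 and 100% in the Rbpms-expressing set, with overlap. Tmeff1, a transmembrane protein with follistatin-like domains, stood at 57.2, 52.7 and 63.7% in the Rbpms-depleted set and at 73.4, 75.5 and 74.5% in the Rbpms-expressing set, on 14 to 25 reads. The sets did not overlap in the first row of Atrx, in Tox3 or in Tmeff1, yet none was called, with limma adjusted p of 0.313 for Tox3, 0.465 for Atrx and 0.488 for Tmeff1 unweighted and of at least 0.577 weighted.

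In the longer classes the smallest p also brought up shallow rows besides Nptn, Cacna2d1 and Pdlim5. Med13l, a subunit of the Mediator kinase module, used the upstream of acceptors 27 bases apart at 21.2, 29.1 and 13.7% in the Rbpms-depleted set and at 0, 6.3 and 10.2% in the Rbpms-expressing set, on 12 to 17 reads. Dmtf1, a Myb-like transcription factor that binds cyclin D, used the upstream of acceptors 175 bases apart at 3.2, 0 and 3.4% in the Rbpms-depleted set and at 18.9, 22.6 and 18.2% in the Rbpms-expressing set, on 12 to 22 reads. The row of 4932438A13Rik, with acceptors 141 bases apart, stood at 66.7, 71.4 and 66.7% in the Rbpms-depleted set and at 85.7, 100 and 100% in the Rbpms-expressing set, on 10 to 15 reads. Limma adjusted p values were 0.465, 0.0947 and 0.112 in this order, and at least 0.427 with weights, so these are values and not calls. When reads within the segment were counted, the Dmtf1 difference was -8.30 points in place of -17.7 points.

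Genes of 7 lists with roles in the heart or in splicing held 68 tested rows, and none was called in the unweighted limma fit. In the read-weighted fit 2 of 5 rows for the sarcomere and Z-disc (Pdlim5 and Tpm2) and 1 of 5 rows for calcium handling and ion channels (Cacna2d1) were called, against 0.56% of all rows. The lists were drawn up with earlier results on Pdlim5 and its kin known, so these shares support nothing further. The median difference was 3.10 points for the sarcomere and Z-disc and 2.57 points for calcium handling and ion channels. It was -0.85 points for 28 rows of splicing factors and RNA-binding proteins, 1.43 points for 11 rows of cytoskeleton, adhesion and membrane traffic, and -1.60 points for 5 rows of cytokinesis and mitosis. For 5 rows of mitochondria and metabolism it was -3.23 points and for 9 rows of growth signalling -2.77 points, beside -0.78 points over all rows.

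Beside Pdlim5 and Tpm2, described above, the list events with the most reads had the following levels. Hnrnpk, an abundant nuclear RNA-binding protein, used the upstream of acceptors 60 bases apart at 74.7, 76.3 and 74.7% in the Rbpms-depleted set and at 72.5, 75.9 and 75.0% in the Rbpms-expressing set. Srsf5, a splicing factor rich in serine and arginine, used the upstream tandem acceptor at 15.2, 17.6 and 16.1% in the Rbpms-depleted set and at 19.6, 14.9 and 18.9% in the Rbpms-expressing set. Sorbs2, an adaptor of the Z-disc and of adhesions, had an event of 30 bases at 71.9, 73.5 and 68.4% in the Rbpms-depleted set and at 71.0, 74.6 and 67.3% in the Rbpms-expressing set. The sets overlapped in each of these events.

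The second Sorbs2 event, of 69 bases, stood at 25.8, 20.9 and 21.1% in the Rbpms-depleted set and at 22.8, 19.9 and 17.4% in the Rbpms-expressing set, with overlap. Ryr2, the calcium release channel of the sarcoplasmic reticulum, had an event of 1132 bases in a noncoding transcript at 87.0, 89.3 and 88.1% in the Rbpms-depleted set and at 87.1, 85.7 and 91.4% in the Rbpms-expressing set. Differences were 2.57 points in Sorbs2 and 0.07 points in Ryr2. Ppp3cb, a catalytic subunit of the phosphatase calcineurin, differed by 5.67 points and Immt, of the mitochondrial cristae junction, by 3.3 points. Gata4, a cardiac transcription factor, differed by -5.23 points, Mapk9, a stress kinase, by -2.77 points and Top2a, a topoisomerase of dividing cells, by -4.33 points, and in all 5 the sets overlapped. Sept8, a septin, stood at 67.1, 58.0 and 52.4% in the Rbpms-depleted set and at 72.7, 70.4 and 70.7% in the Rbpms-expressing set, without overlap but not called (limma adjusted p = 0.686, and 0.577 weighted).

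Acceptor distance went with the reading frame. Of 684 coding rows 4 to 30 bases apart, 354 had a distance that is a multiple of 3 (51.8%), compared with 40 of 158 rows outside coding sequence (25.3%). Of 997 coding rows over 30 bases apart the share was 416 (41.7%), compared with 141 of 479 rows outside coding sequence (29.4%). These are counts of listed rows with no test, and rows of 1 gene are not independent. A distance of 4 bases had 100 rows, 67 of them coding, more than any other distance from 4 to 30 bases.

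**Figure D5:**
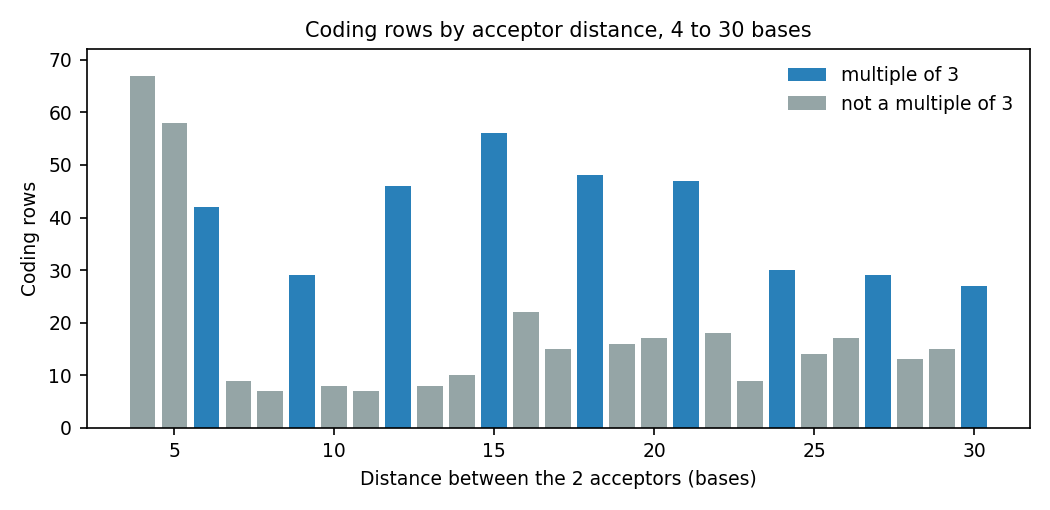
Number of coding rows at each acceptor distance from 4 to 30 bases, with multiples of 3 in blue and other distances in grey. The highest bars are 67 rows at 4 bases and 58 rows at 5 bases, and from 9 bases on each multiple of 3 stands above its neighbours.

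Frame also went with how evenly the acceptors were used. Among coding rows 4 to 30 bases apart with at least 10 reads in each library, the less used acceptor took at least 5% in 108 of 209 rows that keep the frame (51.7%) and in 34 of 177 rows that shift it (19.2%). The median share of the less used acceptor was 5.23% in rows that keep the frame and 1.33% in rows that shift it. Over 30 bases the shares of rows were 47.9% of 259 and 36.7% of 324. Tandem acceptors, which always keep the frame, reached 81.4% of 280 rows, with a median of 19.0% for the less used acceptor. These are descriptions over both sets together.

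Position in the transcript differed between the distance classes as well. The segment was coding in 573 of 644 tandem rows (89.0%), in 684 of 842 rows 4 to 30 bases apart (81.2%) and in 997 of 1476 rows over 30 bases apart (67.5%). In the longest class 339 rows lay in noncoding transcripts, 99 in a 5' UTR and 41 in a 3' UTR. In 345 of those 1476 rows (23.4%) an annotated exon starts at the upstream acceptor and ends before the downstream one. There, junction reads at the upstream acceptor can belong to that shorter exon and not to the long form. Such an exon was annotated for 12 of 842 rows 4 to 30 bases apart, and for none of the 644 tandem rows. Of the events described, Ryr2 has one, of 36 bases, as does Rpl22l1, of 31 bases and described below. Pdlim5 and Tpm2 have none.

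The letters in front of the downstream acceptor were CAG in 460 of 644 tandem rows (71.4%), AAG in 103 (16.0%), TAG in 71 (11.0%) and GAG in 8 (1.24%). In rows over 30 bases apart, CAG took 72.7%, TAG 17.5% and AAG 8.88%. Among the tested tandem events, the median level of the upstream acceptor was 64.2% in front of CAG (175 events), 63.6% in front of AAG (34 events) and 68.0% in front of TAG (30 events). The distributions overlapped widely, with quartiles of 36.9 and 84.1% for CAG and of 43.9 and 86.1% for AAG.

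The upstream acceptor could be read in 144 tandem rows and followed AG in 142. Among the tandem events printed above, these letters could be read only for Cnbp and Pcbp2, and Cnbp is an exception. Those of Rbm3, Gnas and Mff are not known here. The 30 intron bases before the Cnbp segment were gtcttggtctgcttcttttccttattgttg, which end in TG. The share of reads assigned to the upstream acceptor was nonetheless 42.2 to 45.4% over the 6 libraries. Whether the bases of the Cnbp segment came from this acceptor or from a longer end of the exon before was not tested. Use of an acceptor without AG is therefore not shown here. The window of Pcbp2, taaattttcttgctcttttctgtcttttag, ends in TAG. This feature of Cnbp was singled out after the letters were seen.

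Most rows that the authors' deposited table lists at a false discovery rate below 0.05 had few reads. Of those 28 rows, 20 were higher and 8 lower in the Rbpms-depleted set, 17 had a library with under 10 reads and 10 were among the 714 rows tested here. By distance the 28 rows in the authors' deposited table were 2 tandem rows, 12 rows 4 to 30 bases apart and 14 rows over 30 bases apart. Beside the rows of Nptn, Cacna2d1, Pdlim5, Tpm2 and 4932438A13Rik, the tested ones in the authors' deposited table were in Rpl22l1, Celf1, Zkscan17 and Hps3.

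These 4 genes were named after their values were seen. Celf1, a CUG-binding splicing regulator of the developing heart, used the upstream of acceptors 3075 bases apart, in its 3' UTR, at 6.1, 13.2 and 10.2% in the Rbpms-depleted set and at 3.5, 3.3 and 5.5% in the Rbpms-expressing set. Rpl22l1, a paralog of a ribosomal protein, used the upstream of acceptors 67 bases apart at 23.2, 11.2 and 11.9% in the Rbpms-depleted set and at 7.4, 8.3 and 7.6% in the Rbpms-expressing set. Neither was called here, with differences of 5.73 points in Celf1 and 7.67 points in Rpl22l1 (limma adjusted p = 0.686 and 0.691, or 0.276 and 0.206 with weights). Without Rbpms-depleted replicate 1 the difference at Rpl22l1 was 3.78 points. An annotated exon of 31 bases starts at the upstream acceptor of Rpl22l1 and ends before the downstream one, so that its level may include reads of that exon. Zkscan17, a zinc finger gene, and Hps3, a gene of lysosome-related organelles, were lower by 18.9 and 16.7 points in the Rbpms-depleted set. They had 10 to 25 reads per library and were not called (limma adjusted p = 0.598 and 0.607). Total Celf1 RNA was called lower in Rbpms KO (log2 change -0.35, SE 0.08, limma adjusted p = 0.0353). Total RNA of Rpl22l1, Zkscan17 and Hps3 was not called (limma adjusted p = 0.210, 0.676 and 0.101).

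Total RNA of the genes with these events was compared between genotypes as well. Of 2059 such genes tested by limma on RPKM, 99 were called (4.81%), 37 higher and 62 lower in Rbpms KO, beside 822 of all 12911 genes (6.37%), and the difference between these shares was not tested. After rescaling by the median ratio the 93 genes called split into 48 higher and 45 lower. Over 3677 genes of at least 10 RPKM, the log2 ratio of WT replicates 1 and 2 had an SD of 0.132, against 0.244 to 0.496 for all other pairs of libraries, and these 2 may not be independent. With their mean as 1 sample, an alternative added after seeing the data, 9 of the 2059 genes were called (0.437%), beside 211 of all genes (1.63%). Without WT replicate 1 there were 11 (0.534%), beside 237 of all genes (1.84%), and without WT replicate 2 there were 9, beside 192 of all genes (1.49%). The splicing tables name no library, so these 2 cannot be found there. Over the 78 tested rows with at least 100 reads in every library, the level difference between libraries was compared by its SD. It was smallest between Rbpms-expressing replicates 1 and 2, at 4.10 points. Next came Rbpms-depleted replicates 1 and 2 at 4.38 points, and other pairs reached up to 6.92 points. Level differences carry counting error and are on another scale than RPKM ratios, so the gaps between pairs cannot be compared across them. The independence of these libraries was not tested.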

How the data were processed

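Splicing values came from the authors' deposited tables, named after rMATS, which give junction read counts, inclusion levels (length-corrected ratios from 0 to 1) and a p-value and false discovery rate per row, per the file headers. The builds were GRCm38 and mm10, and the tools FastQC 0.11.4, featureCounts 1.6.0 and edgeR 3.30.1, per the submitters' processing notes. Not given in the sources used here were the aligner and the rMATS version. In 572 of 11904 cells the commas between 3 counts had been lost, and the digits were divided so that the printed levels were met. Of 5952 cell pairs, 109 allowed more than 1 reading. RPKM per gene was deposited by the authors, whose depth in reads is unknown.

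Rows with at least 10 reads in each library, a mean level of 5 to 95% and levels not all identical were tested with limma 3.58.1 in R 4.3.3 on the level in percent, with a trend of variance on mean level and Benjamini-Hochberg adjustment. This was the planned test. A fit weighted by reads, n/(p(1 - p)), was added after its result was seen. Expression was tested by limma on log2(RPKM + 0.5) in genes with at least 0.5 RPKM in 3 libraries. Both tests were run on simulated data. Whether replicate numbers pair the RPKM libraries is not known, and the splicing tables name no library. Events were named by smallest p within a distance class, by most reads within 7 gene lists and by most reads among tandem acceptors used at 20 to 80%, of which the planned rule took 6 and 1 is not reported here. Others are marked in the text as chosen after their values were seen. Events and lists were chosen with earlier results of these data known. Both exons' ends matched GENCODE release 21 in 2975 of 2976 rows. Alternatives tried were the read minimum, the limits on the level, a logit scale, reads within the segment, a quasi-binomial model, no trend, each library left out and, for RPKM, the pseudocount, the filter, rescaling and a replicate block.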

Additional observations from a re-analysis of the deposited data

How the results depend on the processing

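The planned fit called 0 of 714 rows, and its alternatives called 2 with at least 20 reads per library, 3 with no limit on the mean level and 1 without the trend. It called 0 with no read minimum, on a logit scale, with reads within the segment and with a quasi-binomial model. Leaving out each library in turn gave 0 to 1 calls, the 1 being a tandem row of Atp7a, lower in the Rbpms-depleted set, without Rbpms-expressing replicate 3. The read-weighted fit, added after the planned count was seen, called 4 rows, 2 when reads within the segment were counted (Nptn and Pdlim5), 3 with no limit on the mean level (Cacna2d1 lost) and 3 to 4 without any 1 library. The cause of these shifts was not tested. Nptn and Pdlim5 passed in each of its 11 fits, and no difference changed sign at the 15 events named by smallest p, by a call or from the authors' deposited table. At the 16 events named by their reads alone, 7 changed sign under some alternative, as did Eny2, the 1 tested pair 2 bases apart.

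Genes with an event called by expression numbered 99 in the planned fit (822 over all genes), 56 with a replicate block (545 over all genes) and 9 with the mean of WT replicates 1 and 2 as 1 sample (211 over all genes). Same-numbered libraries deviated with correlations of 0.21, -0.27 and 0.12. Deviations within groups of 3 libraries cannot settle whether libraries were paired, so pairing is not known. Leaving out each library gave 9 to 108 calls among the same genes. A first version, which applied the low-value filter again to the 5 libraries left, gave 2 to 89 calls, namely 37 and 50 when Rbpms KO replicate 2 or 3 was left out and 2 when WT replicate 1 or 2 was. It was replaced, after its counts were seen, so that 1 choice changed at a time. The pseudocount, no filter and rescaling gave 93 to 106 calls. Few reads limit most rows, and the planned fit had little power at any depth in simulated data.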
